A study of Bos taurus with 12 samples.

Results

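The class I presentation and immunoproteasome genes TAP1, TAPBPL, PSMB8, PSMB9, BOLA and B2M were followed across all 12 arrays of a study of bovine adrenal chromaffin cells in culture, which make and secrete catecholamines. They were taken by gene symbol: every probe set that the platform's probe table assigns to these symbols was used. This gave 6 genes with 8 probe sets, of 9155 genes with 13292 probe sets that carry a single symbol and of 24016 probe sets tested. B2M had 3 probe sets and each of the other genes had 1. A probe set is a group of short probes on the array that report a transcript together.

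The groups of 3 arrays each were human interferon alpha (IFNα, 1 nM for 24 h), interleukin-6 (IL6, 10 nM for 24 h), histamine (10 µM for 6 h) and untreated cells. The sources used here do not give the time in culture of the untreated cells, so the shorter histamine treatment had no stated time-matched control. The submitters' design text calls the triplicates technical repeats. Each p-value below therefore measures the spread between these arrays only, not that between cultures or animals. The deposited values are on a log2 scale, so a difference of 1 is a doubling of the signal.

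Class I molecules display short peptides from the inside of a cell to cytotoxic T cells. The proteasome cuts proteins into peptides, and in cells exposed to interferon the catalytic subunits of the core proteasome can be replaced by inducible ones, which gives the immunoproteasome. The TAP transporter moves the peptides into the endoplasmic reticulum, where loading factors help a class I heavy chain and its light chain, beta-2 microglobulin, to bind them. Chromaffin cells derive from the neural crest, like sympathetic neurons, and interferons are known inducers of the pathway in many cell types.

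Markers of the labelled cell type were high on average on all arrays. The averages of 10 chromaffin genes were 12.30 to 12.63 on the IFNα arrays, 12.08 to 12.44 on the IL6 arrays, 12.59 to 12.72 on the histamine arrays and 12.33 to 12.39 on the untreated arrays, with TH, CHGA, CHGB and PENK close to the highest values of each array. PNMT was the lowest of the 10, at 6.94 to 10.6 over the arrays. Arrays of the same group correlated at 0.9933 or above across probe sets. Of 16 leukocyte markers, 6 lay below the lower quartile of their array (5.02 to 5.11) on every array, among them PTPRC, ITGAM and CD79A. The others did not, with CORO1A at 7.07 to 9.43 and CD14 at 7.17 to 8.59. The 10 adrenal cortex markers averaged 6.33 to 6.4 after IFNα, 6.49 to 6.54 after IL6 and 7.35 to 7.38 after histamine, against 6.93 to 6.96 in untreated cells. In bulk RNA such as this, fewer cells of a type and less RNA per cell cannot be told apart. A few arrays, 3 in all, stood apart in 10 hypoxia genes: relative to untreated cells these averaged 1.11 on IFNα repeat 3 and 1.00 and 1.5 on IL6 repeats 2 and 3, against -0.03 to 0.39 on the other 9 arrays. Results are therefore also given without these 3 arrays where the call differs.

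After IFNα all 6 genes were higher than in untreated cells. The inducible proteasome subunits and TAP1 rose most, PSMB9 and TAP1 by more than 10-fold and PSMB8 by 6.81-fold. The heavy chain BOLA rose 3.32-fold, B2M between 2.24-fold and 2.37-fold by its 3 probe sets, and TAPBPL 2.05-fold. After IL6 TAP1 alone passed the threshold, at 1.62-fold, and after histamine TAPBPL alone, at 0.645 of its untreated level. Calls here need an adjusted p under 0.05 in limma, adjusted over all 24016 probe sets, and a change of at least 1.5-fold.

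By these rules 8 of the 8 probe sets rose after IFNα, where 2.18% of all probe sets tested were called higher and 1.18% lower. Their median log2 change was 1.49, against -0.02 over all probe sets. The genes were chosen with earlier results of these data known, so the shares here are a description and not a test. After IL6, 1 of 8 rose, against 1.44% called higher and 0.949% called lower among all probe sets, and the median was 0.13 against 0.00. After histamine, 0 of 8 rose and 1 fell in limma (3 were lower and 0 higher at an unadjusted p under 0.05), against 2.99% called higher and 2.71% called lower, with a median of 0.01. Counts at an unadjusted p, here and below, have no share over all probe sets beside them, so they are not read as results. Between the cytokines, 8 of 8 were higher after IFNα than after IL6, where 3.29% of all probe sets were called higher and 2.82% lower, with a median of 1.33 against -0.03. The doses of the cytokines differed (1 nM IFNα and 10 nM IL6), so this last contrast compares the treatments as given.

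**Figure D1:**
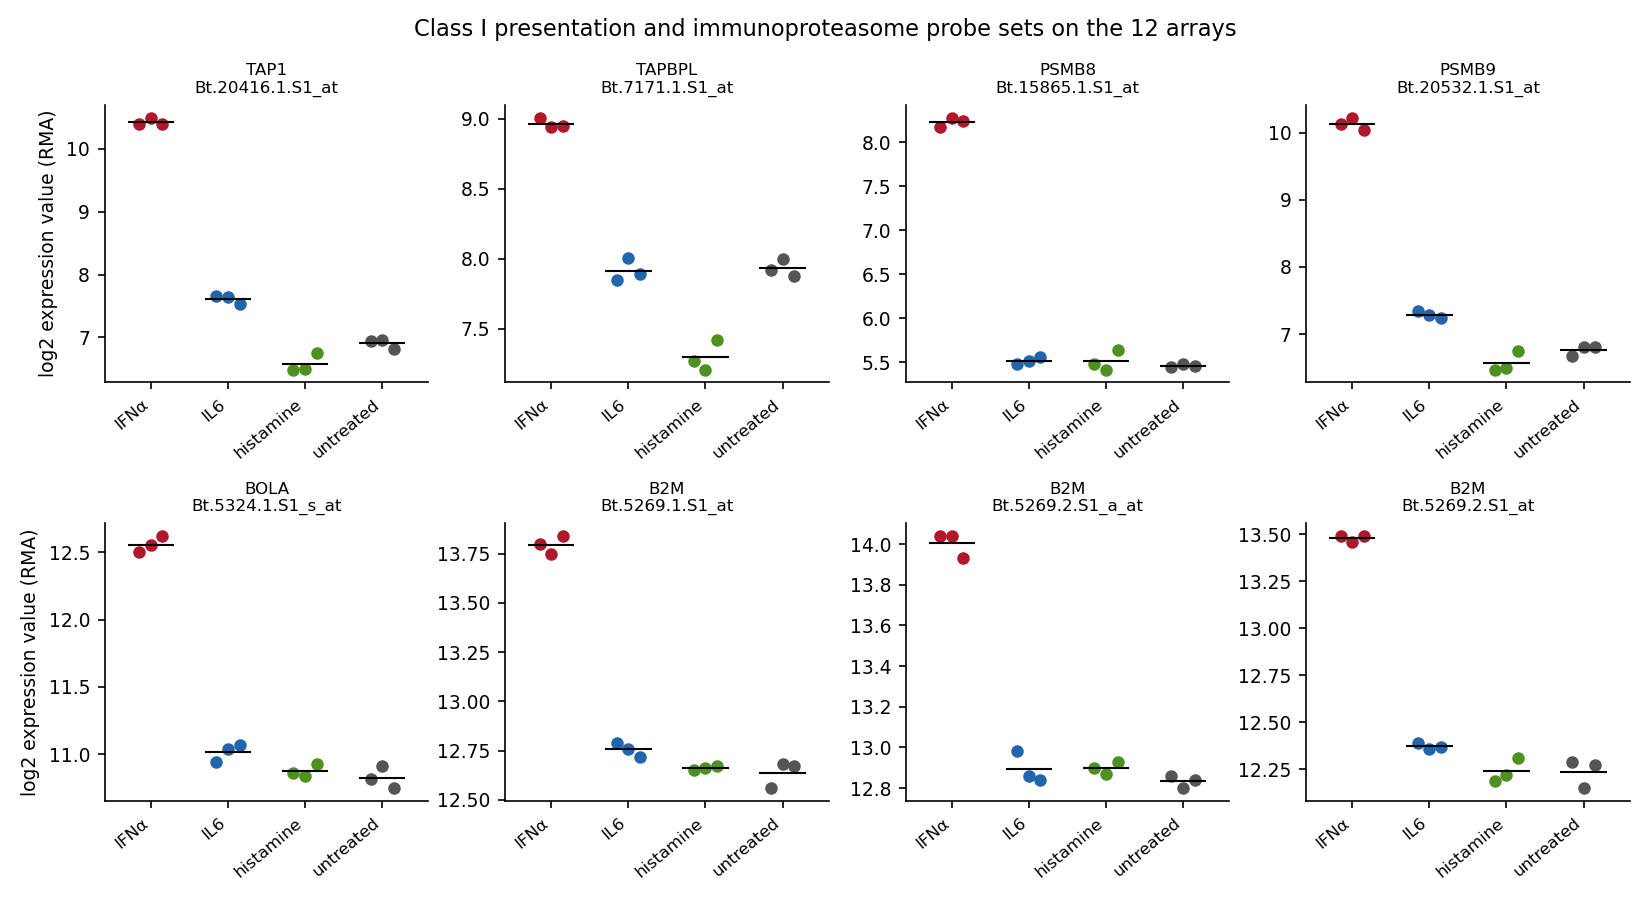
Log2 expression values (y axis, a separate scale in each panel) of the 8 probe sets on the IFNα, IL6, histamine and untreated arrays. Points are single arrays and bars are group means (n = 3). The IFNα points lie above all others in every panel, and the histamine points of TAP1 and of TAPBPL lie below all others.

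PSMB9 encodes the inducible catalytic subunit that takes the place of PSMB6. It read 10.13, 10.23 and 10.05 on the IFNα arrays, 7.35, 7.28 and 7.24 on the IL6 arrays, 6.47, 6.50 and 6.75 on the histamine arrays, and 6.67, 6.81 and 6.81 on the untreated arrays. The IFNα arrays lay far above the rest, the IL6 arrays lay just above all untreated arrays, and the histamine and untreated arrays overlapped. The log2 change after IFNα was 3.37 (SE 0.0809, 95% interval 3.20 to 3.55), or 10.4-fold (limma, adjusted p = 2.51e-13). By size of rise it stood at rank 41 of the 24016 probe sets. After IL6 the change was 0.53 (95% interval 0.35 to 0.70; adjusted p = 0.000407), which is 1.44-fold and so below the fold minimum. After histamine it was -0.19 (95% interval -0.36 to -0.02; adjusted p = 0.0934).

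PSMB8, which takes the place of PSMB5, read 8.17, 8.28 and 8.24 after IFNα, 5.48, 5.52 and 5.56 after IL6, 5.48, 5.42 and 5.64 after histamine, and 5.45, 5.48 and 5.46 in untreated cells. Only the IFNα arrays stood apart. The other groups overlapped, at levels not far above the lower quartile of the arrays, where a small change is hard to see. The rise after IFNα was 2.77 on the log2 scale (SE 0.0718, 95% interval 2.61 to 2.92; limma, adjusted p = 5.55e-13). After IL6 and histamine the changes were 0.06 (95% interval -0.10 to 0.21; adjusted p = 0.633) and 0.05 (95% interval -0.10 to 0.20; adjusted p = 0.675). These intervals leave room for a rise in signal of up to 1.16-fold and 1.15-fold. Changes at this level can come out too small, so the intervals set no limit on the change of the transcript.

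The remaining parts of the inducible proteasome also moved after IFNα. Of 4 such partner genes 3 rose, with a median log2 change of 1.17. PSMB10, the inducible subunit in the place of PSMB7, rose by 1.27 on the log2 scale (limma, adjusted p = 1.12e-10). PSME1 and PSME2, which together form an activator cap of the proteasome, had 1.07 and 1.41 (adjusted p = 2.08e-11 and 2.84e-12). POMP, a chaperone of proteasome assembly, was not called, at 0.05. Of 13 measured genes of the constitutive core proteasome, 0 were called by limma after any treatment. At an unadjusted p under 0.05, 7 were higher after IFNα, 4 higher and 1 lower after IL6, and 11 higher after histamine. The share of all probe sets at that p is not given here, so these counts have no background. The log2 changes after IFNα lay between -0.06 and 0.39, of which PSMA3 was the highest (adjusted p = 1.78e-06). PSMB5, PSMB6 and PSMB7, the subunits that the inducible ones replace, had -0.01, -0.06 and -0.02 after IFNα (adjusted p = 0.939, 0.46 and 0.797).

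Set against its constitutive counterpart on the same array, PSMB8 was higher by 2.77 relative to PSMB5, PSMB9 by 3.44 relative to PSMB6 and PSMB10 by 1.29 relative to PSMB7 after IFNα, on the log2 scale. In each pair the difference on all 3 IFNα arrays exceeded that on all 3 untreated arrays (exact permutation test, two-sided, p = 0.1, the smallest p that 3 arrays against 3 allow). After IL6 the same measure gave -0.11 for PSMB8, 0.52 for PSMB9 and 0.22 for PSMB10 (exact permutation test, two-sided, p = 0.2, 0.1 and 0.1). After histamine it gave -0.09, -0.22 and -0.20 (exact p = 0.4, 0.1 and 0.1), lower for PSMB9 and PSMB10 on all 3 histamine arrays than on any untreated array. Where all 3 treated arrays were set apart from the untreated ones, this describes unequal change of signal within an array. It does not show that a constitutive subunit was unchanged. For PSMB8 after IL6 and after histamine the arrays were not fully set apart.

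Peptide transport and loading come next in the pathway. TAP1 encodes a subunit of the TAP transporter. It read 10.40, 10.5 and 10.39 after IFNα, 7.66, 7.64 and 7.53 after IL6, 6.49, 6.50 and 6.76 after histamine, and 6.95, 6.96 and 6.82 in untreated cells. No 2 groups overlapped, and the order of the levels was IFNα, IL6, untreated, histamine. The rise after IFNα was 3.52 (SE 0.0782, 95% interval 3.35 to 3.69), or 11.5-fold (limma, adjusted p = 1.11e-13), at rank 38 of all probe sets. After IL6 it was 0.70 (95% interval 0.53 to 0.87; adjusted p = 2.28e-05), the single call among the 8 probe sets in that comparison. After histamine TAP1 was at -0.33 (95% interval -0.49 to -0.16; adjusted p = 0.00473), below the fold minimum.

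TAPBPL encodes the tapasin-related protein, which edits the peptides held by class I molecules. Its arrays read 9.01, 8.94 and 8.95 after IFNα, 7.85, 8.01 and 7.89 after IL6, 7.27, 7.21 and 7.42 after histamine, and 7.92, 8.0 and 7.88 in untreated cells. The IL6 and untreated arrays overlapped, with the IFNα arrays above and the histamine arrays below them. The log2 change was 1.03 after IFNα (SE 0.0683, 95% interval 0.89 to 1.18; limma, adjusted p = 3.69e-08). After IL6 it was -0.02 (95% interval -0.16 to 0.13; adjusted p = 0.895). After histamine TAPBPL fell by 0.63 on the log2 scale (95% interval -0.78 to -0.49; adjusted p = 5.92e-06), at rank 528 of 24016 from the lowest change. It was the member with the smallest rise after IFNα and the single one called after histamine.

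**Figure D2:**
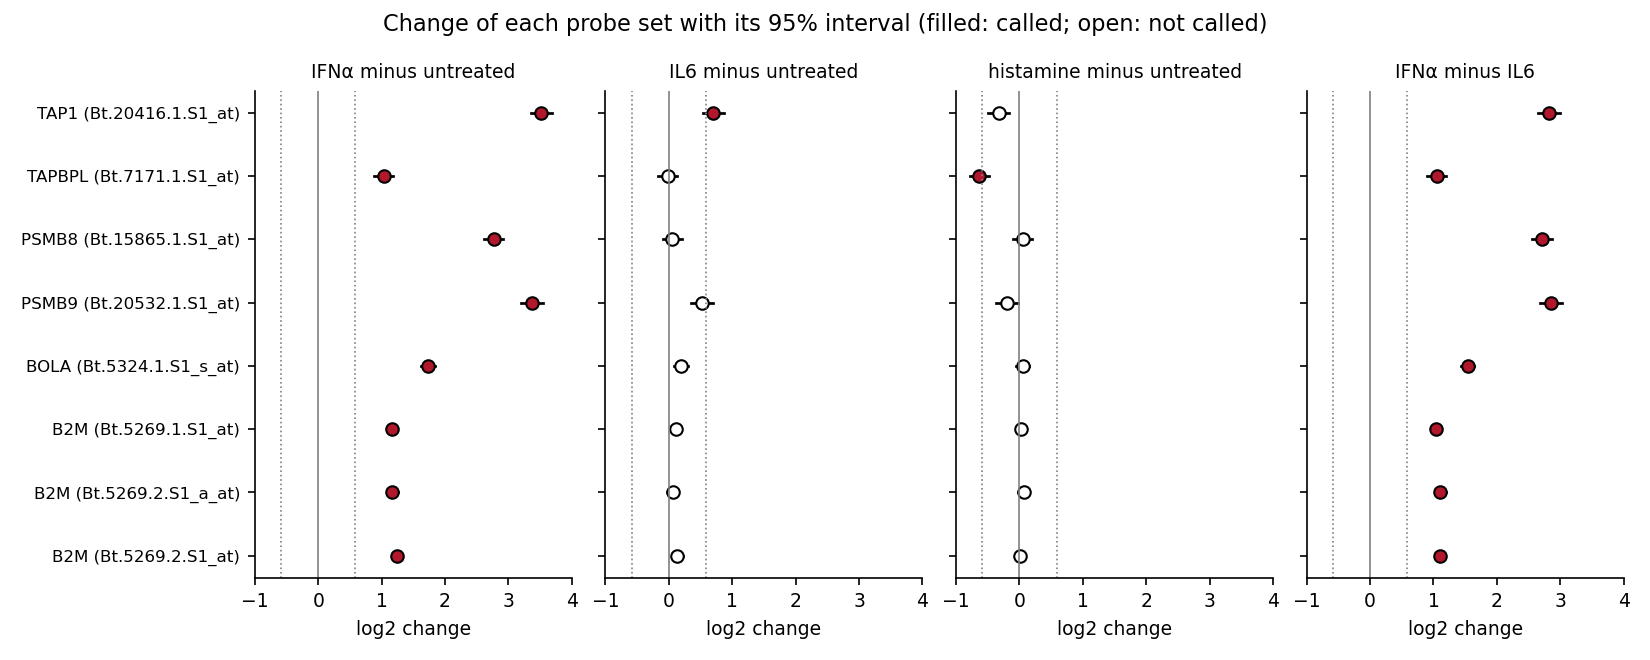
Log2 change of each probe set (x axis) in the comparisons of IFNα, IL6 and histamine with untreated cells and of IFNα with IL6. Points are estimates with 95% intervals from limma, filled where called, and dotted lines mark 1.5-fold. Filled points are all 8 in both IFNα panels, TAP1 in the IL6 panel and TAPBPL in the histamine panel.

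Of 11 measured partner genes of class I assembly and loading, 6 rose and 0 fell after IFNα (median log2 change 0.61). BOLA-N, a further class I heavy chain gene, had 3.23, or 9.38-fold (limma, adjusted p = 3.18e-12). TAP2, the second subunit of the transporter, had 1.01 (adjusted p = 1.02e-09), against 3.52 for TAP1. TAPBP, which encodes tapasin, had 0.64 (adjusted p = 9.84e-08). ERAP1 and ERAP2, aminopeptidases that trim peptides in the endoplasmic reticulum, had 0.61 and 1.26 (adjusted p = 8.08e-05 and 2.94e-07). ERAP2 averaged 4.65 in untreated cells, below the lower quartile of every array, so its change is a lower bound. MR1, a class I-like molecule that presents microbial metabolites, had 0.75 (adjusted p = 1.13e-05). The general chaperones of the endoplasmic reticulum in the list were not called, with CALR at 0.09, CANX at 0.07, PDIA3 at 0.32 and HSPA5 at -0.15.

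Among the same 11 genes, limma called 0 after IL6 and 0 after histamine, against 4 and 7 with an unadjusted p under 0.05. BOLA-N was the highest after IL6, at 0.49 (limma, adjusted p = 0.0029), or 1.41-fold. In the contrast of IFNα with IL6, 5 rose and none fell. Of 5 measured peptidases that trim peptides in the cytosol, 1 rose after IFNα: LAP3, a leucine aminopeptidase, at 0.74 (adjusted p = 1.1e-08).

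The class I molecule itself is made of heavy chain and light chain. The BOLA probe set read 12.50, 12.55 and 12.62 after IFNα, 10.94, 11.04 and 11.07 after IL6, 10.86, 10.84 and 10.93 after histamine, and 10.82, 10.91 and 10.75 in untreated cells. The IFNα arrays were highest, the IL6 arrays lay narrowly above the untreated ones, and histamine overlapped untreated. The change after IFNα was 1.73 (SE 0.0489, 95% interval 1.63 to 1.84; limma, adjusted p = 1.59e-12). After IL6 it was 0.19 (95% interval 0.09 to 0.29; adjusted p = 0.0153), a 1.14-fold difference that lies below the fold minimum, and after histamine 0.05 (adjusted p = 0.511). With IL6 repeats 2 and 3 and IFNα repeat 3 set aside, which leaves IL6 repeat 1 alone, the change after IL6 was 0.11.

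B2M encodes the light chain shared by all class I molecules. Its brightest probe set read 14.04, 14.04 and 13.93 after IFNα, 12.98, 12.86 and 12.84 after IL6, 12.90, 12.87 and 12.93 after histamine, and 12.86, 12.80 and 12.84 in untreated cells. Those IFNα values are at or near the highest value of any probe set on an array (a maximum of 14.01 or more on each), so its rise is read as a lower bound. The next in brightness read 13.80, 13.75 and 13.84 after IFNα, 12.79, 12.76 and 12.72 after IL6, 12.65, 12.66 and 12.67 after histamine, and 12.56, 12.68 and 12.67 in untreated cells. The dimmest of the 3 read 13.49, 13.46 and 13.49 after IFNα, 12.39, 12.36 and 12.37 after IL6, 12.19, 12.22 and 12.31 after histamine, and 12.29, 12.15 and 12.27 in untreated cells.

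All 3 B2M probe sets placed every IFNα array above every other array. Their log2 changes after IFNα were 1.17, 1.16 and 1.24 in the order given (limma, adjusted p = 7.7e-12, 2.27e-12 and 3.33e-12). After IL6 they were 0.06, 0.12 and 0.14 (adjusted p = 0.309, 0.0246 and 0.0227), all under 1.1-fold, and after histamine 0.07, 0.02 and 0.00 (adjusted p = 0.226, 0.678 and 0.964). With the same arrays set aside as for BOLA, which leaves IL6 repeat 1 alone, the changes after IL6 were 0.15 for all 3 probe sets.

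Cattle carry several near-identical class I heavy chain genes, and 20 further probe sets were assigned to more than 1 of them. They cannot be credited to a single gene. After IFNα 11 of the 20 were called higher and 9 were not called, at -0.03 to 0.21. Of those called, 7 had log2 changes of 0.89 to 2.95. The other 4 averaged 3.54 to 4.54 in untreated cells, below the lower quartile of every array, so their changes are lower bounds. The dimmest of them also lay below it after IFNα, at 4.20, and no size is read from its change. None was called after IL6 (-0.10 to 0.30) or histamine (-0.22 to 0.09) by limma, against 4 and 2 with an unadjusted p under 0.05. Of those with the letter S in the probe set name 9 of 10 were called after IFNα, against 2 of 10 with the letter A. The probe set of the platform symbol BoLA, kept apart from BOLA by its spelling, had a log2 change of 1.63 after IFNα. The 1.73 of the BOLA probe set, whose name ends in s_at because its probes can match several transcripts, thus lay within the range of its relatives.

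**Figure D3:**
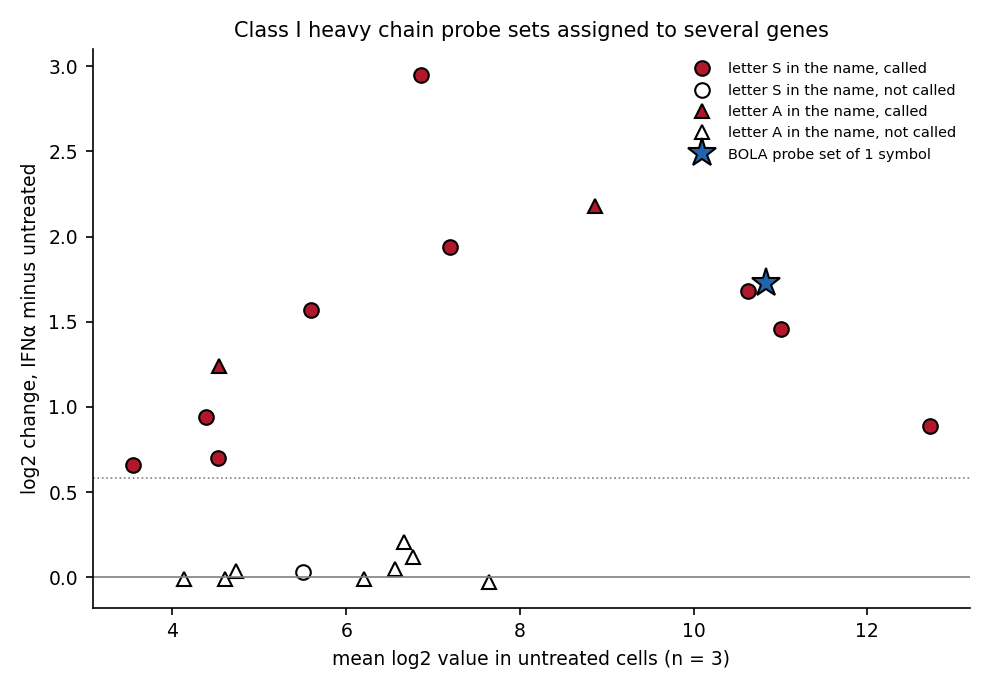
Log2 change after IFNα (y axis) against the mean log2 value in untreated cells (x axis, n = 3) for the 20 class I heavy chain probe sets with several gene symbols and for the BOLA probe set. The star is the BOLA probe set, circles have the letter S and triangles the letter A in the probe set name, filled where called, and the dotted line marks 1.5-fold. The 7 brighter called probe sets of several symbols lie between 0.89 and 2.95, the 4 on the left, at 3.54 to 4.54 in untreated cells, are lower bounds, and the probe sets not called lie between -0.03 and 0.21.

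After IL6 the members split by size. TAP1 and PSMB9 had 0.70 and 0.53, with intervals that do not overlap the -0.10 to 0.21 of PSMB8. PSMB8 averaged 5.46 in untreated cells, not far above the lower quartile, where changes can come out too small. Its smaller change is therefore not read as a smaller response. The 3 genes are direct neighbours among protein-coding genes in the RefSeq table of the cattle assembly, in the order PSMB8, TAP1, PSMB9. For 5 of the 8 probe sets all 3 IL6 arrays lay above all untreated arrays, which held for 15.2% of all probe sets tested. At the adjusted p alone 5 of 8 were higher, those of TAP1, PSMB9, BOLA and 2 of B2M, against 6.68% of all probe sets. This count rests on small changes in BOLA and B2M. It was 2 without IL6 repeat 2 or with eBayes without a trend, and 3 without IL6 repeat 3 or with quantile normalization. TAP1 and PSMB9 were among those counted in each of these fits. When tested against a 1.2-fold change, TAP1 alone was counted and PSMB9 was not. Without the 3 arrays with raised hypoxia genes, which leaves IL6 repeat 1 alone and assumes that it varies like the other groups, TAP1 had 0.75 (limma, adjusted p = 0.000461) and PSMB9 passed the threshold at 0.59 (adjusted p = 0.00346). The count of members called higher was then 2 of 8, and that after IFNα was 8 as before.

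The direct contrast of the cytokines gave a log2 difference of IFNα minus IL6 of 2.85 for PSMB9, 2.82 for TAP1 and 2.71 for PSMB8 (limma, adjusted p = 1.57e-12, 1.16e-12 and 6.96e-13). It was 1.54 for BOLA, 1.04 to 1.11 for the B2M probe sets and 1.05 for TAPBPL. The averages of the 16 leukocyte markers were 5.38 to 5.43 after IFNα, 5.51 to 5.62 after IL6 and 5.37 to 5.41 in untreated cells. None of them was called after IFNα, and 2 rose and 1 fell after IL6. Of the 10 adrenal cortex markers, 5 fell after IFNα and 3 after IL6. Of 10 endothelial markers 1 fell after each, with list averages of 5.69 to 5.71 after IFNα and 5.72 to 5.90 after IL6, against 5.96 to 5.99 in untreated cells. Of 12 fibroblast and mural markers 1 fell after IFNα, and 1 rose and 1 fell after IL6, with averages of 7.25 to 7.34 after IFNα and 7.44 to 7.47 after IL6, against 7.50 to 7.54 in untreated cells. These averages span unlike levels: DCN read 12.88 to 13.16 over the arrays, and the highest value of any other was 9.55, of ACTA2. The part of these cells in the class I changes was not tested.

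After histamine 2 of 8 probe sets were lower at the adjusted p alone, those of TAP1 and TAPBPL, against 16.4% of all probe sets. The changes of PSMB8, BOLA and the B2M probe sets were at most 0.07 on the log2 scale. The constitutive proteasome genes had changes between 0.01 and 0.35, with a median of 0.15 and no call. POMP had 0.42 after histamine, short of 1.5-fold (limma, adjusted p = 1.55e-07). Of the 10 adrenal cortex markers 2 rose after histamine. Of the 12 fibroblast and mural markers 1 rose, with averages of 7.76 to 7.81 after histamine, against 7.50 to 7.54 in untreated cells, and of the 10 endothelial markers 1 rose and 1 fell. The part of these cells in the histamine values was not tested.

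Regulators of the pathway were read from a list of 28 genes, of which 20 were measured. After IFNα 5 rose and none fell. IRF7, a transcription factor of the interferon response, had 2.94 (limma, adjusted p = 2.57e-12), though its other probe sets ran from -0.02 to 2.53. IRF9 and STAT2, subunits of the complex that carries the type I interferon signal to DNA, had 2.12 and 1.72 (adjusted p = 6.07e-12 and 3.32e-09). IRF3, which is activated by sensors of viral nucleic acids, had 1.18 (adjusted p = 1.39e-09). RFX5, a subunit of the factor that binds promoters of MHC genes, had 0.68 (adjusted p = 1.37e-05), and its other probe set had 0.13. IFNAR1, a subunit of the receptor for IFNα, was at -0.18 and not called.

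After IL6 the single regulator called was SOCS3, which feeds back to restrain signalling by the IL6 receptor, at 1.28 (limma, adjusted p = 3.58e-08). It averaged 4.65 in untreated cells, below the lower quartile of every array, so the rise is a lower bound. STAT3, the main transcription factor activated by IL6, had 0.35 (adjusted p = 0.000141), under the fold minimum, and STAT2 and IRF9 were at 0.11 and 0.14. After histamine, 0 of the 20 rose and 1 fell in limma, against 4 higher and 5 lower at an unadjusted p under 0.05. The one that fell was IRF9, by 0.74 on the log2 scale (adjusted p = 1.29e-06). RFX5 had -0.54 (adjusted p = 7.39e-05) and IRF3 -0.36 (adjusted p = 0.000272), both below the fold minimum. NLRC5 and IRF1, further regulators of class I, were not analysed here.

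**Figure D4:**
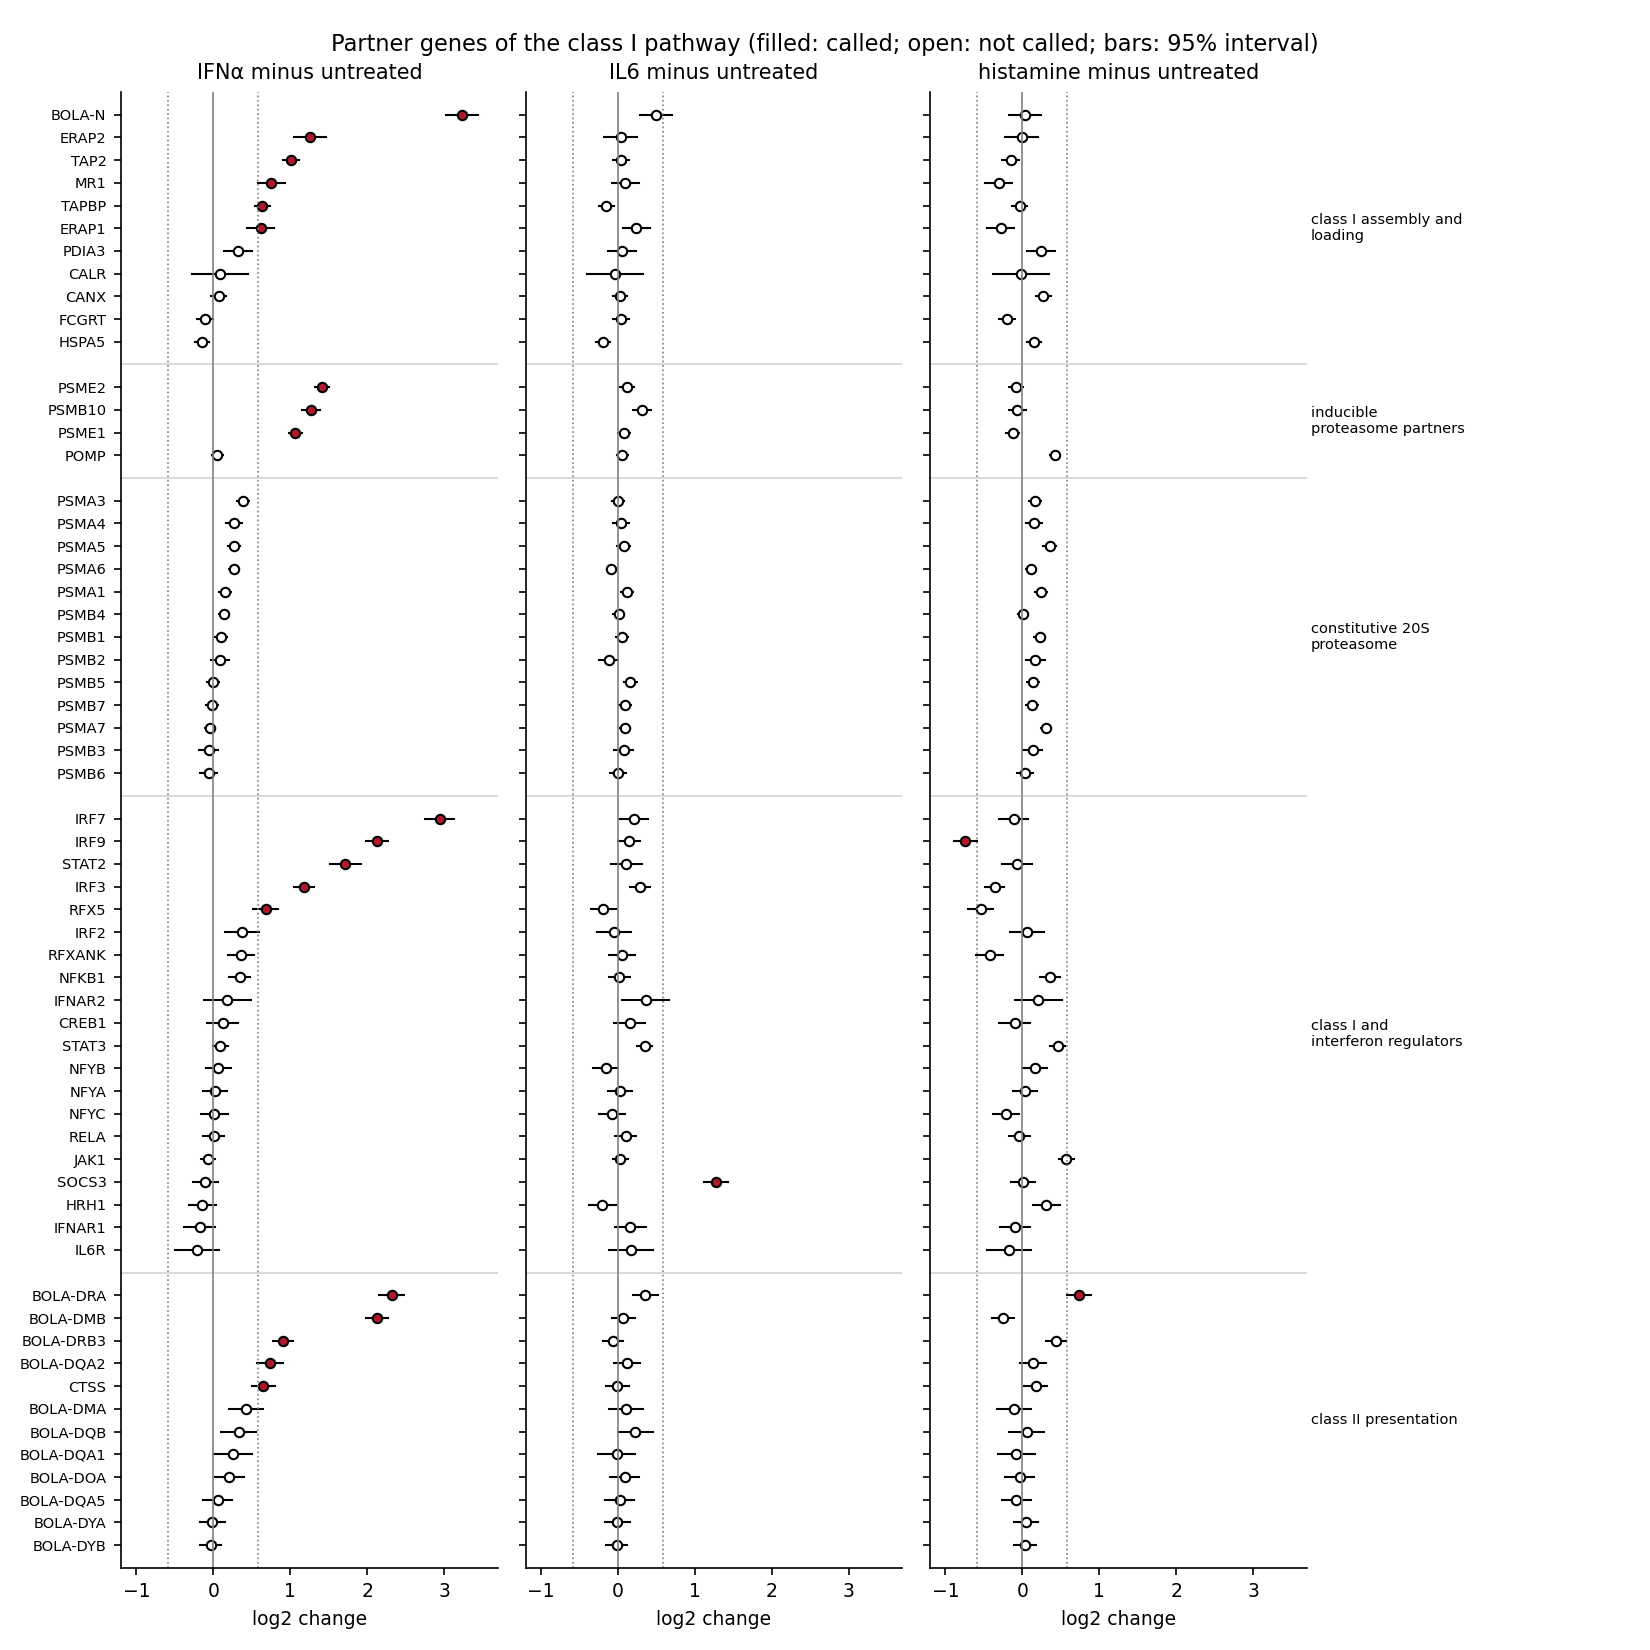
Log2 change (x axis) of the measured partner genes after IFNα, IL6 and histamine relative to untreated cells, in 5 blocks of genes, with 95% intervals from limma. The cytosolic peptidases are not drawn, points are filled where called, and dotted lines mark 1.5-fold. After IFNα 6 of 11 assembly and loading genes, 3 of 4 inducible proteasome partners, 0 of 13 constitutive proteasome genes, 5 of 20 regulators and 5 of 12 class II genes are filled.

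Class II molecules, which present peptides to helper T cells and are best known from immune cells, were listed for comparison. Of 12 measured class II presentation genes 5 rose and 0 fell after IFNα (median log2 change 0.38). BOLA-DRA, the alpha chain of the DR molecule, reached 2.32 (limma, adjusted p = 7.36e-12), and BOLA-DMB, a subunit of the chaperone that loads class II, had 2.13 (adjusted p = 6.79e-12). BOLA-DRB3, the DR beta chain, had 0.91, BOLA-DQA2 0.74 and CTSS, a protease of the class II route, 0.65 (adjusted p = 3.21e-08, 8.92e-06 and 9.04e-06). The other probe sets of BOLA-DQA2 ran from -0.06 to 0.52. After IL6 limma called 0 of 12 (2 at an unadjusted p under 0.05), and after histamine BOLA-DRA rose by 0.74 (adjusted p = 3.79e-06). Of the 16 leukocyte markers 6, PTPRC among them, were below the lower quartile on every array and 10 were not, such as CORO1A at 7.07 to 9.43 and CD14 at 7.17 to 8.59, and their part in the class II changes was not tested.

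The genes closest in profile were found by the root-mean-square difference of log2 values over the 12 arrays, each relative to its own untreated mean. The points share arrays and groups, so the measure is a description. TAP1 and PSMB9 were each other's closest gene, at 0.145, followed for both by BOLA-N (0.307 from TAP1 and 0.222 from PSMB9). PARP14, an ADP-ribosyltransferase, came next for TAP1 (0.346) and TMEM106A for PSMB9 (0.288). Closest to PSMB8 were FOXS1 (0.132), a forkhead factor, MDK (0.168), which encodes the growth factor midkine, and IRF7 (0.169).

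BOLA lay closest to BoLA (0.0986), TIFA (0.1) and TRIM25 (0.119), a ubiquitin ligase of innate RNA sensing. B2M lay closest to XRN2 (0.0766), an RNA exonuclease, YTHDC2 (0.0857) and DRAM1 (0.0891). The neighbours of TAPBPL were IQCD (0.0655), PSTPIP2 (0.0873) and CTC1 (0.108). IQCD and PSTPIP2 were also called lower after histamine, at -0.62 and -0.64, and CTC1 was at -0.57, so the profile that rose after IFNα and was lower after histamine was not found in TAPBPL alone.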

How the data were processed

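Total RNA labelled with biotin was put on Affymetrix bovine arrays, 1 colour per array, per the labels' protocols. The authors deposited log2 expression values that came from RMA, per the submitters' processing notes. This method subtracts background, brings arrays to a common scale and combines the probes of a set, so changes of dim transcripts can come out too small. The sources used here give neither its version nor its settings. The values ran from 2.88 to 14.14, came without detection calls, and their precision is limited by the number of arrays.

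The sample labels gave groups, doses and times. Of 24128 probe sets, 112 controls were left out. The platform annotation gave the gene names, and 13263 probe sets matched a RefSeq table of cattle genes (assembly ARS-UCD2.0, used for names and neighbours only) by gene identifier. The fit kept 86 probe sets with more than 1 symbol and 10638 with none, which were credited to no gene. A partner gene was represented by its brightest probe set.

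The fit was made with limma 3.58.1 (R 4.3.3), using lmFit for 4 group means on 12 arrays, eBayes with a trend on the mean, and Benjamini-Hochberg correction across 24016 probe sets. Intervals cover 95%. The procedure was tested on simulated data. Members, gene lists and alternatives were chosen with earlier results of these data known. Named were all probe sets of the 6 genes, called partners up to the 6 largest per list after IFNα and the 4 largest elsewhere, a fixed set of subunits and regulators, and the 3 genes closest in profile to each member. CALR, CANX, PDIA3, HSPA5, POMP and PSMA3, and the values of partners in comparisons in which they were not called, were added after their values were seen. Plots were made in Python 3.11.15 with matplotlib 3.10.9.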

Additional observations from a re-analysis of the deposited data

How the results depend on the processing

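The members' log2 changes gave 764 values under alternative settings, of which 744 kept their direction and their side of the threshold. In 14 more an uncalled change near 0 (-0.02 to 0.05) changed sign, to between -0.05 and 0.06: TAPBPL after IL6, and PSMB8 and B2M after histamine. Many settings, such as other fold minima, eBayes without a trend or leaving out an array of a group not compared, reuse the same group means. A direction could not change in those, so the 744 is not read as a measure of robustness. After IFNα the 8 probe sets were called in each setting, and likewise between the cytokines, except where the dimmer 50% of probe sets, PSMB8 among them, were left out of the test, which left 7. After IL6 the count was 2 with a fold minimum of 1.2, with cyclic loess, and after leaving out the hypoxia-high arrays (IFNα repeat 3, IL6 repeats 2 and 3), PSMB9 passing at 0.53, 0.59 and 0.59, and it was 0 with a fold minimum of 2. Over the settings TAP1 ranged from 0.66 to 0.77 and PSMB9 from 0.48 to 0.59 after IL6. After histamine the count was 2 with a fold minimum of 1.2, by TAP1 at -0.33, and 0 with a fold minimum of 2, while TAPBPL ranged from -0.69 to -0.59. All probe sets called with a fold minimum of 1.2 numbered 2928 after IFNα, 2969 after IL6, 5723 after histamine and 4932 between the cytokines, against 807, 573, 1369 and 1468 at 1.5 and 325, 148, 254 and 548 at 2. With the repeat number as a replicate block the counts were 827, 600, 1384 and 1473, with 8, 1, 1 and 8 member probe sets. Whether the repeat numbers pair the samples is not settled by these values. Arrays with the same number correlated at -0.072 to 0.597 in their deviations from group means, with 7 of 18 pairs over 0.1. Those with different numbers correlated at -0.609 to 0.367, and 9 of 12 arrays correlated best with their own number. Leaving out any array in turn kept the members' counts of calls. The count of members higher after IL6 at the adjusted p alone, 5 of 8, was 2 to 5 in those fits, lowest without IL6 repeat 2. It was 1, by TAP1, when tested against a 1.2-fold change (treat). The count lower after histamine, 2 of 8, was 3 without histamine repeat 3 and with array weights, by PSMB9, and 1 with treat. Averaging a gene's probe sets kept the counts of the pathway lists within 1.5 times. It left 0 endothelial markers called after IL6 and 0 fibroblast and mural markers after histamine, against 1 each. Between the cytokines 1 leukocyte marker was then called, against 2. Of the hypoxia genes 2 were then called after IL6, against 4, and 0 after histamine, against 1. B2M near the top of the scale and PSMB8 near its bottom limit what can be seen.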

Other observations

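BOLA-DQB1, a class II beta chain with 5 probe sets, was chosen after its values were seen. Its brightest probe set read 9.93, 9.96 and 10.79 on IFNα repeats 1, 2 and 3, 9.37, 10.09 and 10.80 on IL6 repeats 1, 2 and 3, 9.68, 9.58 and 9.60 on the histamine arrays, and 9.45, 9.44 and 9.43 on the untreated arrays. Another of them read 6.12, 6.08 and 6.91 on the IFNα arrays, 5.44, 6.46 and 7.0 on the IL6 arrays, and 5.71, 5.58 and 5.66 on the untreated arrays. The arrays high within a treatment are those on which the 10 hypoxia genes were high: these averaged -0.02, -0.02 and 1.11 on the IFNα arrays and 0.17, 1.00 and 1.5 on the IL6 arrays, against 0.01, 0.02 and -0.03 on the untreated arrays, as log2 values relative to the untreated mean. Of the 5 probe sets 1 was called, after IFNα, at 0.66 (limma, adjusted p = 0.00171). Of the class I genes, BOLA read 11.04 and 11.07 on IL6 repeats 2 and 3 and 10.94 on IL6 repeat 1, whereas TAP1 and PSMB9 were highest on IL6 repeat 1, at 7.66 and 7.35.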
